A study of Schizosaccharomyces pombe with 6 samples.

Results

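The comparison described here is that of cid14delta with wild type in the fission yeast *Schizosaccharomyces pombe*, made on 4 of the series' 6 arrays. The cid14delta strain (SPB101) lacks cid14, and the wild type (SPB76) is the parent strain. Each was profiled in 2 biological replicates, and whether these were separate cultures is not stated further, so p-values measure the spread between these samples. All cultures grew in YES, a rich yeast extract medium, at 30 °C and were collected at an optical density of 0.5. The other 2 arrays carry air1delta (SPB103), which lacks another subunit of the same complex; they entered the estimate of the spread and 1 comparison at the end. The members are all 5483 annotated features of the deposited table, and with cid14 itself left out 5482 features remained.

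Cid14 is a noncanonical poly(A) polymerase. Together with a zinc-knuckle protein such as Air1 and the helicase Mtr4 it forms the TRAMP complex, which adds short tails to nuclear RNAs and hands them to the exosome, an assembly of ribonucleases that degrades or trims them. Known substrates of TRAMP include by-products of ribosomal RNA processing, aberrant transfer RNAs, unstable noncoding transcripts and, in fission yeast, transcripts from heterochromatin. The arrays measured total RNA per annotated feature, not tails, and the double-stranded target does not tell a gene from a transcript antisense to it.

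The deleted gene was read first. On the log2 scale cid14 (SPAC12G12.13c) read 3.91 and 3.63 on the cid14delta arrays, against 8.92 and 8.84 on the wild-type arrays. Its change was -5.11 ± 0.10 (log2, cid14delta minus wild type, ± SE, n = 2 arrays per strain), at least 34.5-fold, so the cid14delta and wild-type arrays matched their labels. The highest value of a deleted gene on its own deletion arrays was 4.90, and values at or below it are called the deleted-gene level below. Where 1 strain lay at that level the change is a lower bound, and where both did no fold is given. Array medians were 9.27 and 9.28 in cid14delta and 9.21 and 9.21 in wild type.

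Loss of cid14 was accompanied by many small changes and few large ones. At an adjusted p under 0.05 in limma's test, 262 features rose (4.78% of those tested) and 212 fell (3.87%). Of the rises 132 were at least 0.5 on the log2 scale, 25 at least 1 and 7 at least 1.5, and of the falls 78, 14 and 4 reached these sizes. The median rise was 0.50 (1.42-fold) and the median fall -0.46 (1.38-fold), while the median change of all features was 0.03 with a median standard error of 0.08. The smallest adjusted p was 0.00665, and 1640 features passed an unadjusted p of 0.05.

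Per the labels, the replicate 1 arrays of both strains share a day, as do the replicate 2 arrays. With that pairing as a replicate block, 103 features rose (1.88%) and 75 fell (1.37%), so the blocked result is given below wherever it ended a call. In that fit the air1delta arrays, which share no day with the others, were paired by number alone. The block fitted to the 4 arrays of cid14delta and wild type left 0 calls (1368 at an unadjusted p under 0.05), so each call said to hold with the block rests on the fit to 6 arrays. The counts rested on the spread pooled over 6 arrays: limma called 68 features from the 4 arrays of cid14delta and wild type alone. Without wild type replicate 2 it called 45, without cid14delta replicate 1 it called 0 (1205 at an unadjusted p under 0.05), and without cid14delta replicate 2 it also called 0 (1000). Every call named below was therefore lost when either cid14delta array was left out. With each array centred on its median, 190 features rose and 354 fell, so that the share of rises among calls was 34.9% in place of 55.3%, and after quantile normalization 157 rose and 176 fell (47.1%).

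The days gave separate estimates of the change that share no array. The change had the same sign on both days for 3953 of 5482 features (72.1%), with 2196 higher and 1757 lower in cid14delta. Of all changes 53.3% were positive on the first day and 54.7% on the second. Across features the changes of the days correlated at r = 0.569; the features share the arrays and are not independent. All 474 called features had the same sign on both days, and their cid14delta and wild-type arrays did not overlap. A call needs a change large against the spread of these same arrays, which all but requires both properties, so neither is separate support. Non-overlap alone was common, with 35% of all features higher and 27.7% lower on both cid14delta arrays than on both wild-type arrays. On the first day 53 features were higher in cid14delta by at least 1, of which 46 were higher on the second day and 24 by at least 1 again. Of the 20 features lower by at least 1 on the first day, 15 were lower on the second and 10 by at least 1 again. On the second day 47 features were higher by at least 1 and 44 were lower by as much, against 53 and 20 on the first.

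**Figure D1:**
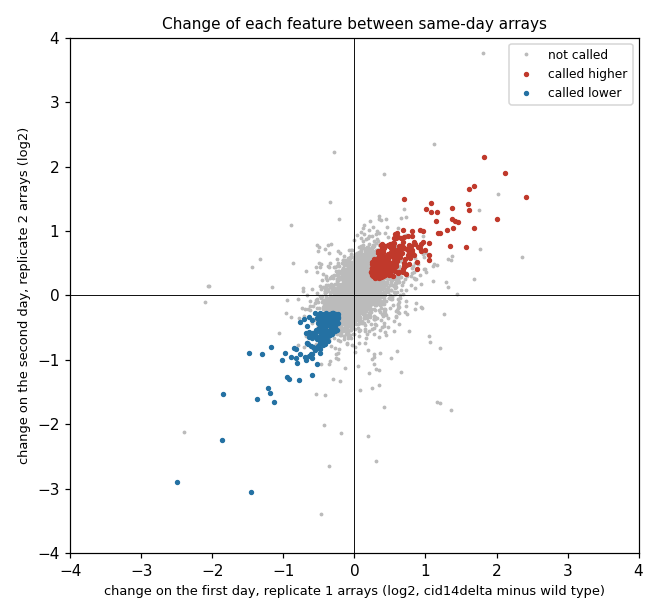
Log2 change of each feature, cid14delta minus wild type, between the replicate 1 arrays (first day, x axis) and the replicate 2 arrays (second day, y axis). Each point is 1 of 5482 features. The 262 called higher (red) all lie in the upper right and the 212 called lower (blue) all in the lower left, which a call all but requires.

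The largest upward change of a noncoding RNA feature, of 2.79, did not pass the test. Among called features the largest rise was that of SPAC22A12.17c, which has only a systematic ID in the reference table. Its log2 values were 10.06 and 9.98 in cid14delta, against 7.95 and 8.07 in wild type. The cid14delta arrays lay far above both wild-type arrays, and the change was 2.01 ± 0.16 (4.03-fold, adjusted p = 0.011). SPAC4H3.08 had 9.74 and 9.89 in cid14delta, against 8.06 and 8.19 in wild type, and rose by 1.69 ± 0.12. Its change was nearly the same on both days, at 1.68 and 1.70. SPBPB2B2.03c had 7.24 and 7.19 in cid14delta, against 4.83 and 5.67 in wild type; it rose by 1.97 ± 0.27, and since 1 wild-type array was at the deleted-gene level the rise may be larger.

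Genes with a known or partly known product rose as well. The meiotically upregulated gene mug125 (SPAC1A6.08c) had 8.16 and 8.20 in cid14delta, against 6.55 and 6.78 in wild type, and its rise of 1.51 ± 0.09 (2.86-fold) had the smallest adjusted p among the rises (0.00665). Values of gon7 (SPAC6B12.18), a subunit of the KEOPS complex that modifies transfer RNAs, were 8.44 and 8.82 in cid14delta and 7.35 and 7.40 in wild type. It rose by 1.26 ± 0.13 (2.39-fold, adjusted p = 0.0161), and its lower cid14delta array was still clear of wild type. The gene ftm4 (SPAC750.05c), which lies in the subtelomere of chromosome I, had 11.80 and 12.09 in cid14delta, against 10.18 and 10.43 in wild type, a rise of 1.64 ± 0.13. Values of hsp16 (SPBC3E7.02c), for a small heat shock protein, were 10.60 and 10.81 in cid14delta, against 9.22 and 9.45 in wild type. Its rise of 1.37 ± 0.23 (adjusted p = 0.0317) did not pass with the replicate block (adjusted p = 0.06).

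The noncoding RNA nam3 (SPNCRNA.532) had 10.15 and 10.34 in cid14delta, against 8.14 and 9.16 in wild type. The wild-type arrays differed from each other by about as much as the nearer of them did from cid14delta, and the rise of 1.59 ± 0.32 (adjusted p = 0.0428) did not pass with the block (adjusted p = 0.0557). SPBCPT2R1.04c (1.99 ± 0.42) and SPBPB2B2.06c (1.37 ± 0.27) rose as deposited and were lost with the block as well (adjusted p = 0.06 and 0.0732). These last 3 features were also lost after quantile normalization, and SPBCPT2R1.04c after median centring. The other large rises were those of SPCC191.05c (1.46 ± 0.12), the pseudogene SPCC18B5.02c (1.30 ± 0.10), SPAC144.01 (1.29 ± 0.17), hpz2 (SPAC13F5.07c, 1.28 ± 0.12) and SPAC5H10.04 (1.23 ± 0.09). For hpz2 the values were 5.29 and 5.36 in cid14delta and 3.92 and 4.17 in wild type, so the wild type was at the deleted-gene level and the rise is a lower bound.

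The largest fall among called features was that of aes1 (SPBPB21E7.07), in the subtelomere of chromosome II. Its values were 5.36 and 5.38 in cid14delta, against 7.85 and 8.29 in wild type, and the cid14delta arrays were close to the deleted-gene level. It fell by 2.70 ± 0.16 (6.50-fold, adjusted p = 0.00665). SPBC1271.07c had 7.58 and 7.53 in cid14delta, against 9.44 and 9.77 in wild type, and fell by 2.06 ± 0.12 (4.16-fold, adjusted p = 0.00665). SPCC70.08c had 7.97 and 7.41 in cid14delta, against 9.42 and 10.46 in wild type. Its change of -2.25 ± 0.36 was uneven, at -1.45 on the first day and -3.05 on the second, and it did not pass with the block (adjusted p = 0.0579).

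Further large falls were in genes of known product. The gene vht1 (SPAC1B3.16c), which encodes the plasma membrane transporter of biotin, had 11.86 and 11.96 in cid14delta, against 13.22 and 13.58 in wild type, and fell by 1.49 ± 0.13 (2.81-fold, adjusted p = 0.0114). The guanine deaminase gene gud1 (SPCC1672.03c) had 10.20 and 10.30 in cid14delta, against 11.42 and 11.74 in wild type, and fell by 1.33 ± 0.11 (2.52-fold). The gene gdh2 (SPCC132.04c) of NAD-dependent glutamate dehydrogenase, which releases ammonium from glutamate, had 11.44 and 11.48 in cid14delta, against 12.38 and 12.74 in wild type. It fell by 1.11 ± 0.13 (2.16-fold, adjusted p = 0.0185). The cyclin gene pas1 (SPAC19E9.03) had 11.18 and 10.998 in cid14delta, against 11.97 and 12.32 in wild type, and fell by 1.05 ± 0.13. In all of these genes the lower wild-type array lay above the higher cid14delta array by more than either strain's arrays differed.

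SPAC3G6.05 (-1.39 ± 0.14), aca1 (SPAC21E11.04, -1.11 ± 0.17), SPAC227.17c (-1.19 ± 0.18) and SPAC11D3.18c (-1.35 ± 0.15) ended at values well above the deleted-gene level. The noncoding RNA SPNCRNA.366 read 4.88 on both cid14delta arrays, against 6.73 and 6.41 in wild type, a fall of at least 1.69 ± 0.32. The gene mfm2 (SPAC513.03), 1 of the genes for the mating pheromone M-factor, read 4.50 and 4.77 in cid14delta, against 5.81 and 5.68 in wild type, a fall of at least 1.10 ± 0.14. SPAC1D4.07c (3.86 and 3.83 in cid14delta, 4.89 and 4.83 in wild type) and SPNCRNA.233 (3.19 and 3.11 in cid14delta, 4.36 and 3.92 in wild type) passed the test with both strains at the deleted-gene level. SPNCRNA.233 was lost with the block (adjusted p = 0.0557) and after quantile normalization.

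**Figure D2:**
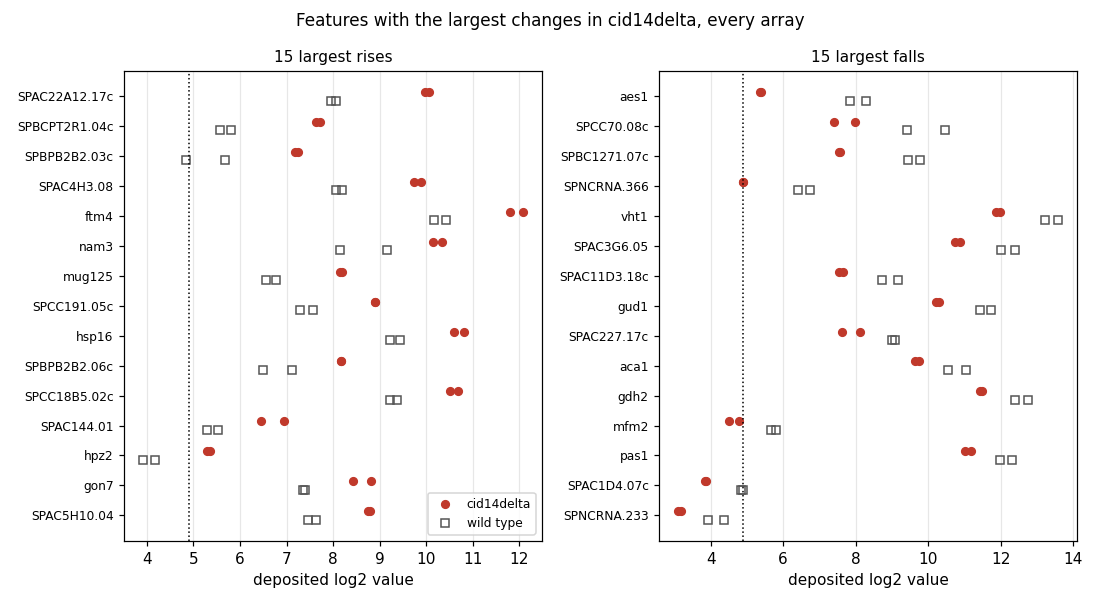
Deposited log2 value (x axis) on each cid14delta array (red circles) and each wild-type array (open squares) for the 15 largest rises (left) and the 15 largest falls (right) among called features. The dotted line is the deleted-gene level of 4.90; the strains do not overlap in any row, and aes1 shows the widest gap.

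Genes of amino acid biosynthesis had the most falls of any list. Limma called 20 of its 65 genes lower (30.8%, against 3.87% of all features) and 1 higher, and 44 stayed above the threshold. The median change was -0.27, against 0.03 over all features, with -0.24 on the first day and -0.31 on the second. On both days 53 of the 65 were lower in cid14delta and 4 were higher, against 1757 lower and 2196 higher among all 5482 features. The count of falls was 9 with the replicate block, 3 from 4 arrays, 16 after quantile normalization, 31 after median centring, 27 with the filter on low values, 30 with trend and robust moderation, 16 without wild type replicate 1 and 1 without wild type replicate 2. Of the 65 genes 46 were in the highest quartile of features by mean log2 value.

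The arginine branch had 7 falls among 9 genes named arg, with a median of -0.55, and 8 of the 9 were lower on both days. Of these arg4 (SPBC215.08c), for the large subunit of carbamoyl phosphate synthase, had 12.85 and 12.86 in cid14delta, against 13.49 and 13.50 in wild type. The arrays of each strain were almost identical, and the change was -0.64 ± 0.06 (adjusted p = 0.0116). The genes arg11 (-0.55 ± 0.06), of the early ornithine steps, and arg41 (-0.58 ± 0.07) also fell, and both held with the block. The falls of arg12, for argininosuccinate synthase (-0.70 ± 0.11), arg5, for the small subunit of carbamoyl phosphate synthase (-0.58 ± 0.10), arg3, for ornithine carbamoyltransferase (-0.55 ± 0.09), and arg1 (-0.36 ± 0.06) were lost with the block, at adjusted p = 0.053, 0.0622, 0.0587 and 0.0651.

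In the lysine branch lys1 (SPAP7G5.04c), which encodes aminoadipate reductase, had 11.71 and 11.68 in cid14delta, against 12.37 and 12.43 in wild type. Its change was -0.70 ± 0.06 (adjusted p = 0.011), and the arrays within a strain differed by far less than the strains. The homoisocitrate dehydrogenase gene lys12 fell by 0.59 ± 0.07 and lys9 by 0.35 ± 0.07, the last not with the block (adjusted p = 0.0811). The only rise in the list was lys7 (SPAC17C9.02c), for the phosphopantetheinyl transferase that activates aminoadipate reductase, with 8.46 and 8.60 in cid14delta, against 7.91 and 7.93 in wild type (0.61 ± 0.07). Outside these branches leu1, for isopropylmalate dehydrogenase (-0.50 ± 0.06), leu3, for isopropylmalate synthase (-0.45 ± 0.07), his4 (-0.55 ± 0.06) and hom3, for aspartate kinase (-0.46 ± 0.06), fell and held with the block. The falls of asn1, trp1, ser1, cys12, aro1 and ilv5, between -0.46 and -0.30, did not. Of 12 genes named met, 0 passed, and their median was 0.01.

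Nitrogen uptake and catabolism had 5 falls and 0 rises among 24 genes (20.8% lower, against 3.87% of all features), with a median of -0.23. On both days 19 were lower in cid14delta and 2 were higher. Beside gud1 and gdh2, the NADP-dependent glutamate dehydrogenase gene gdh1 (SPCC622.12c) had 12.51 and 12.43 in cid14delta, against 13.11 and 13.33 in wild type. It encodes the enzyme that fixes ammonium into glutamate, and it fell by 0.75 ± 0.10 (adjusted p = 0.0228). The ammonium transporter gene amt1 (SPCPB1C11.01) had 11.38 and 11.27 in cid14delta, against 11.89 and 12.06 in wild type, and fell by 0.65 ± 0.09. The arginase gene car1 fell by 0.80 ± 0.16, but not with the block (adjusted p = 0.0635). Purine and pyrimidine biosynthesis had 3 falls among 18 genes (16.7%, against 3.87% of all features), ade2 (-0.52 ± 0.08), ade10 (-0.36 ± 0.07) and ade7 (-0.34 ± 0.07), 0 rises and a median of -0.14. All 3 were lost with the block, and ade10 and ade7 after quantile normalization.

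Vitamin supply did not move in 1 direction. In the list of phosphate and vitamin supply, 3 of 15 genes rose (20%, against 4.78% of all features) and 3 fell (20%, against 3.87%), with 2 and 2 under the block, and a median of 0.00. A list of 7 genes of biotin, vitamin B6 and pantothenate supply, put together after these values were seen, held 5 falls and 1 rise. In it bio2 (SPCC1235.02), for biotin synthase, had 11.77 and 11.75 in cid14delta, against 12.25 and 12.35 in wild type (-0.54 ± 0.06), and fell together with the biotin transporter gene vht1. The pyridoxine biosynthesis genes snz1 (-0.60 ± 0.12) and sno1 (-0.79 ± 0.15) fell, the second not with the block (adjusted p = 0.0587) and the first not after quantile normalization. The pantothenate transporter gene liz1 fell by 0.69 ± 0.12, not with the block (adjusted p = 0.0607). The vitamin B6 transporter gene bsu1 (SPAC17A2.01) rose, with 8.30 and 8.39 in cid14delta, against 7.72 and 7.89 in wild type (0.54 ± 0.08). Among phosphate genes tgp1, for a transporter of glycerophosphodiesters, rose by 0.72 ± 0.12 and held with the block.

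In glycolysis 3 of 16 genes fell (18.8%, against 3.87% of all features) and 0 rose, the median was -0.24, and 14 of the 16 were lower in cid14delta on both days. The phosphoglycerate kinase gene pgk1 (SPBC14F5.04c) had 13.83 and 13.79 in cid14delta, against 14.22 and 14.16 in wild type (-0.38 ± 0.06). The alcohol dehydrogenase gene adh1 (-0.32 ± 0.07) and the glucose phosphate isomerase gene pgi1 (-0.34 ± 0.07) fell too. With the block all 3 were lost, at adjusted p = 0.0561, 0.0632 and 0.0671, and pgi1 also after quantile normalization. Of the 16 genes 14 were in the highest quartile of features by mean log2 value. Among 17 genes of hexose transport and the glucose response, gut2 (SPCC1223.03c), for mitochondrial glycerol 3-phosphate dehydrogenase, rose (0.85 ± 0.14; 5.88% of the list, against 4.78% of all features), 0 fell and the median was -0.10. Its values were 10.33 and 10.32 in cid14delta, against 9.65 and 9.30 in wild type.

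Ergosterol and sterol response genes had 2 falls among 25 (8%, against 3.87% of all features), erg1, for squalene epoxidase (-0.54 ± 0.11), and hcs1, for HMG-CoA synthase (-0.38 ± 0.07), and a median of -0.13. Both were lost with the block and after quantile normalization. In N-glycan assembly wbp1 fell (-0.45 ± 0.09) among 19 genes (5.26%), and in autophagy atg8 (-0.47 ± 0.10) among 30 (3.33%). Both shares were near the 3.87% of all features, and neither call held in either of these settings. Of 35 proteasome genes 0 passed limma's test, with the smallest adjusted p at pts1 (0.22 ± 0.06, adjusted p = 0.0731). Of 9 biosynthetic genes that often serve as auxotrophic markers in strain construction, lys1, leu1, trp1 and arg3 fell, which are also in the amino acid list, while ura4 (8.16 and 7.98 in cid14delta, 8.03 and 8.12 in wild type) and ade6 (11.21 and 11.25 in cid14delta, 11.36 and 11.45 in wild type) did not pass. No source used here gives the auxotrophies of the strains, and their part in these changes was not tested.

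Genes of the respiratory chain, of the mitochondrial ATP synthase and of their assembly moved the other way. Rises numbered 12 among 53 genes (22.6%, against 4.78% of all features) and falls 0, and the median change was 0.22, with 0.23 on the first day and 0.21 on the second. On both days 41 were higher in cid14delta and 5 lower, against 2196 higher and 1757 lower among all 5482 features. Quantile normalization left 12 rises, the block 6, the 4 arrays 2, and leaving out wild type replicate 2 left 0. Of the 53 genes 22 were in the highest quartile by mean log2 value and 5 in the lowest.

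Complex III, which passes electrons to cytochrome c, had 4 rises among 7 genes named qcr, with a median of 0.53, and all 7 were higher on both days. Its gene qcr7 (SPCC737.02c) had 13.41 and 13.43 in cid14delta, against 12.93 and 13.00 in wild type (0.46 ± 0.06, adjusted p = 0.0231). The gene rip1 (SPBC16H5.06), for the Rieske iron-sulfur subunit, had 13.23 and 13.27 in cid14delta, against 12.84 and 12.83 in wild type (0.42 ± 0.06), and qcr8 rose by 0.65 ± 0.10. The gene cyt2 (SPAC24C9.02c), for a lyase that attaches heme to cytochrome c1, had 10.74 and 10.60 in cid14delta, against 9.92 and 9.93 in wild type, the largest rise among called genes of the list (0.74 ± 0.08, adjusted p = 0.0181). In complex IV cox6 (SPAC1B2.04) had 10.37 and 10.49 in cid14delta, against 9.70 and 9.84 in wild type (0.66 ± 0.08). The ATP synthase assembly gene atp11 rose by 0.49 ± 0.07. The rises of atp5 (0.65 ± 0.10), cox13 (0.60 ± 0.09), qcr6 (0.57 ± 0.09), qcr1 (0.53 ± 0.08), atp7 (0.49 ± 0.10) and atp14 (0.44 ± 0.09) were lost with the block, at adjusted p between 0.0557 and 0.0819, and that of atp7 also after quantile normalization. Of 6 genes named sdh, for complex II, 0 passed, and their median was 0.01.

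Other mitochondrial genes were read beside these. MICOS, a complex of the inner membrane that shapes the junctions of cristae, had 3 rises among 4 genes in a list added after the values were seen. Its gene mic19 (SPBC25H2.09) had 11.08 and 11.12 in cid14delta, against 10.27 and 10.19 in wild type, and rose by 0.87 ± 0.06 (adjusted p = 0.011). The genes mic26 (0.79 ± 0.10) and mic10 (0.69 ± 0.10) rose, the second not with the block (adjusted p = 0.0561), and mic60 had 0.44 ± 0.10 (adjusted p = 0.0617). Of 59 mitochondrial ribosomal protein genes 3 rose (5.08%, close to the 4.78% of all features) and 0 fell. Their median was 0.17, and 39 of the 59 were higher on both days. The rises were those of mrpl38 (0.44 ± 0.09), mrp11 (0.39 ± 0.06) and mrp2 (0.30 ± 0.06). All 3 were lost with the block and after quantile normalization.

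**Figure D3:**
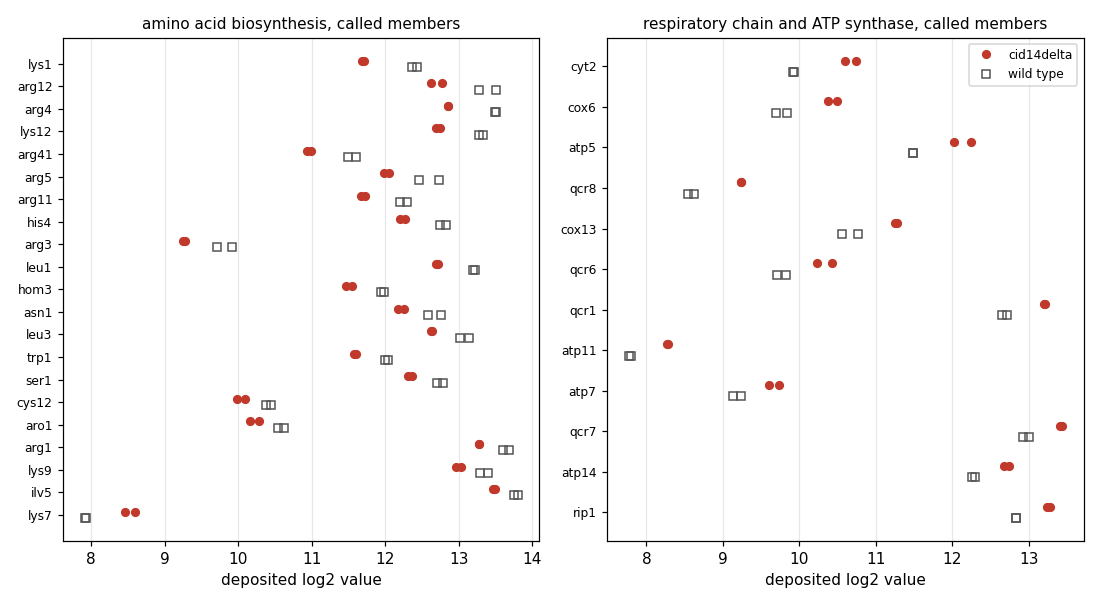
Deposited log2 value (x axis) on each cid14delta array (red circles) and each wild-type array (open squares) for the called genes of amino acid biosynthesis (left) and of the respiratory chain and ATP synthase (right). In the left panel 20 genes are lower in cid14delta and lys7 is higher; in the right panel all 12 are higher.

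Genes that assemble the large ribosomal subunit were almost all higher. The 31 genes held 8 rises (25.8%, against 4.78% of all features) and 1 fall, the median change was 0.32, and 30 of the 31 were higher in cid14delta on both days. The gene ebp2 (SPAC17H9.05) had 10.17 and 10.22 in cid14delta, against 9.74 and 9.62 in wild type (0.52 ± 0.07, adjusted p = 0.0232), and it was the only 1 of the 8 rises to hold with the block. The others were mak16 (0.58 ± 0.11), rlp7 (0.51 ± 0.09), nop4 (0.45 ± 0.09), the ribosomal RNA methyltransferase gene spb1 (0.43 ± 0.07), rpf1 (0.38 ± 0.06), nip7 (0.37 ± 0.06) and nop2 (0.32 ± 0.06), with blocked adjusted p between 0.0561 and 0.0758. The helicase gene drs1 (SPCC1223.07c) went against the rest, with 12.10 and 12.24 in cid14delta, against 12.52 and 12.64 in wild type (-0.41 ± 0.09), and was lost with the block (adjusted p = 0.0747). After quantile normalization nop4 and drs1 no longer passed, and after median centring nop2 and nop4 did not.

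The same direction was seen, with smaller changes, in small subunit assembly and nucleolar genes. Of 33 genes, 4 rose (12.12%, against 4.78% of all features), 0 fell, the median change was 0.17, and 29 were higher on both days. The nucleolin-like gene gar2 (SPAC140.02) had 12.82 and 12.77 in cid14delta, against 12.40 and 12.27 in wild type (0.46 ± 0.07). The nuclease gene nob1, which matures the small subunit RNA (0.52 ± 0.10), imp4 (0.46 ± 0.08) and ltv1 (0.39 ± 0.07) rose but were lost with the block and after quantile normalization. Ribosomal proteins themselves showed no common direction: 2 of 79 large subunit genes rose, rpp202 (0.63 ± 0.10) and rpl3601 (0.35 ± 0.07), and rpp203 fell (-0.34 ± 0.07), while of 56 small subunit genes rps3002 rose (0.46 ± 0.08). None of these 4 held with the block, and the medians of -0.03 and -0.01 turned to 0.04 and 0.05 after quantile normalization. In RNA polymerases I and III rrn3, for an initiation factor of ribosomal RNA transcription, rose (0.33 ± 0.06) among 33 genes (3.03%), and among 37 translation factor genes (2.70%) tif5 did (0.40 ± 0.07). Both shares were below the 4.78% of all features, and both genes rose without the block only.

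The RNA subunits of the nucleases that process transfer and ribosomal RNA precursors both rose. For mrp1 (SPNCRNA.82), the RNA of RNase MRP, the values were 10.15 and 10.19 in cid14delta, against 9.37 and 9.61 in wild type (0.68 ± 0.09, adjusted p = 0.0236). For rrk1 (SPNCRNA.128), the RNA of RNase P, they were 8.19 and 8.03 in cid14delta, against 7.14 and 7.41 in wild type (0.83 ± 0.13), a rise lost with the block (adjusted p = 0.0579) and after quantile normalization. In that list, added after the values were seen, 3 of 11 genes rose, and the third was the protein subunit gene rpr2 (0.65 ± 0.11), also not with the block (adjusted p = 0.0587). Whether the arrays measured these RNAs or their precursors cannot be told apart.

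Of 44 transfer RNA modification genes 4 rose (9.09%, against 4.78% of all features) and 0 fell, with a median of 0.08. The gene ctu2 (SPBC19C2.13c), of the enzyme that thiolates transfer RNAs, had 8.02 and 7.94 in cid14delta, against 7.29 and 7.47 in wild type (0.60 ± 0.08). The methyltransferase gene trm11 rose by 0.46 ± 0.06 and held with the block, while trm10 (0.30 ± 0.06) did not. Of 72 splicing genes 5 rose (6.94%, against 4.78% of all features) and usp109 fell (-0.41 ± 0.07). The rises were those of cwf7 (0.52 ± 0.09), cwf21 (0.41 ± 0.07), cwf25 (0.41 ± 0.08), cwf26 (0.40 ± 0.07) and cwf24 (0.34 ± 0.07). Of these splicing calls 0 held with the block. Among the 8 Lsm ring genes, a list added after the values were seen, lsm6 (SPAC2F3.17c) rose, with 9.93 and 10.03 in cid14delta, against 9.30 and 9.41 in wild type (0.63 ± 0.09).

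The partners of Cid14 did not pass the test. Of 19 genes of TRAMP, of the related MTREC complex and of other poly(A) polymerases, limma called 0. The helicase gene mtr4 had 11.65 and 11.71 in cid14delta, against 11.56 and 11.38 in wild type (0.21 ± 0.08, adjusted p = 0.153), and air1 had 10.46 and 10.64 in cid14delta, against 10.49 and 10.40 in wild type (0.11 ± 0.17). The smallest p was at cid16 (0.31 ± 0.07, adjusted p = 0.0545), a gene of the same polymerase family. Among 17 exosome and Ski genes rrp6 (SPAC1F3.01), for the nuclear nuclease of the exosome, rose (5.88% of the list, against 4.78% of all features), with 8.19 and 8.25 in cid14delta, against 7.91 and 7.74 in wild type (0.39 ± 0.08, adjusted p = 0.0441). It was lost with the block (adjusted p = 0.0694), after median centring and after quantile normalization.

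Heterochromatin and RNA interference genes had 4 rises among 24 (16.7%, against 4.78% of all features), 0 falls and a median of 0.08, which was -0.01 after quantile normalization. The RNA interference gene dsh1 (SPBC582.04c) had 8.99 and 9.16 in cid14delta, against 8.52 and 8.59 in wild type (0.52 ± 0.08) and held with the block. The genes sir2, for a histone deacetylase (0.38 ± 0.08), rdp1, for the polymerase that copies RNA into double strands (0.37 ± 0.07), and dcr1, for Dicer (0.32 ± 0.06), were lost with the block, at adjusted p = 0.0798, 0.0629 and 0.07, and after median centring; sir2 and rdp1 were also lost after quantile normalization.

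The subtelomeric list took the 40 outermost protein-coding genes of each end of chromosomes I and II, of which 122 were measured, with 6 rises (4.92%, against 4.78% of all features) and 7 falls (5.74%, against 3.87%). The median change was -0.01. Of the 122, 75 were in the lowest quartile of features by mean log2 value. The helicase-like gene tlh1 (SPAC212.11) had 5.89 and 5.71 in cid14delta, against 6.87 and 6.60 in wild type, and fell by 0.93 ± 0.15. SPBC1289.14 had 6.48 and 6.78 in cid14delta, against 5.403 and 5.49 in wild type, and rose by 1.18 ± 0.13. Of 24 wtf genes, a family of meiotic drivers on chromosome III, wtf25 (1.16 ± 0.21) and wtf19 (0.38 ± 0.05) rose (8.33%) and 0 fell. Both were lost with the block and after quantile normalization. The 3 Tf2 retrotransposon features did not pass, with changes of 0.21 ± 0.12, 0.07 ± 0.11 and -0.30 ± 0.23. Near-identical copies of tlh, wtf and Tf2 sequences may share probes, so these values are uncertain.

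Of 474 noncoding RNA features 15 rose (3.16%, against 4.78% of all features) and 15 fell (3.16%, against 3.87%). Both strains were at the deleted-gene level in 303 of them (63.9%). SPNCRNA.322 had 6.68 and 6.84 in cid14delta, against 5.93 and 5.91 in wild type (0.84 ± 0.07, adjusted p = 0.0116). SPNCRNA.44 had 7.87 and 7.90 in cid14delta, against 7.20 and 7.13 in wild type (0.71 ± 0.06, adjusted p = 0.011). SPNCRNA.561 (0.77 ± 0.09), SPNCRNA.538 (0.47 ± 0.05) and prl19 (0.69 ± 0.13) rose and held with the block as well; prl19 was lost after quantile normalization. SPNCRNA.126 passed with 4.61 and 4.26 in cid14delta, against 3.22 and 3.21 in wild type, both at the deleted-gene level. With the block the list had 7 rises and 5 falls. The median change was -0.03 as deposited and 0.00 after quantile normalization. With the filter on low values 162 of these features were tested, with 16 rises, 10 falls and a median of 0.10. The filter used the mean over all 6 arrays, so a weak feature could pass through high values in some strains only. The filtered counts and median are therefore not separate support for a shift.

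Meiotic messages, some of which are eliminated in growing cells through the RNA-binding protein Mmi1 and the exosome, were largely below the threshold. Of 17 Mmi1-dependent mRNAs mcp7 (SPAC13A11.03) rose, with 8.16 and 8.29 in cid14delta, against 7.46 and 6.79 in wild type (1.10 ± 0.21), as did cnp3 (0.46 ± 0.09), and mug8 fell (-0.41 ± 0.08). None of the 3 held with the block, and the median was 0.16. Of 110 genes named mug or meu 4 rose (3.64%, against 4.78% of all features) and 3 fell (2.73%, against 3.87%). Beside mug125, the genes mug2 (SPBC106.08c), with 7.32 and 7.73 in cid14delta, against 6.40 and 6.71 in wild type (0.97 ± 0.16), and mug121 (0.68 ± 0.11) rose and held with the block, and mug177 rose without it, by at least 0.38 ± 0.07, as its wild type was at the deleted-gene level. The falls of meu18 (-0.45 ± 0.10), mug8 and mug182 (-0.35 ± 0.06) were lost with it. The median of that list was 0.06 as deposited and -0.02 after quantile normalization.

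Genes of nitrogen starvation and mating entry had 4 falls among 16 (25%, against 3.87% of all features) and 0 rises, with a median of -0.13. Beside pas1 these were isp7 (-0.56 ± 0.09), the protease gene isp6 (-0.45 ± 0.08) and gpa1, for the G protein subunit of pheromone signalling (-0.33 ± 0.06), all lost with the block. Among 7 markers of M cells mam2 (SPAC11H11.04), for the receptor of the P cell pheromone, rose, with 6.90 and 7.02 in cid14delta, against 6.31 and 6.31 in wild type (0.65 ± 0.07), and mfm2 fell. Of 5 markers of P cells 0 passed limma's test, with sxa1 at -0.24 ± 0.06 (adjusted p = 0.0627). In cultures measured in bulk, fewer cells of a type and less RNA per cell cannot be told apart.

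Of 22 heat shock and chaperone genes 3 rose (13.6%, against 4.78% of all features) and 0 fell, with a median of 0.07. The gene hsp3104 (SPAC11D3.13), of the DJ-1 family, had 9.89 and 9.81 in cid14delta, against 8.93 and 8.98 in wild type (0.90 ± 0.07, adjusted p = 0.011), and its relative hsp3101 (SPCC757.03c) had 9.07 and 9.22 in cid14delta, against 7.77 and 8.21 in wild type (1.16 ± 0.16). Of 19 core stress genes 2 rose (10.5%), hsp16 and the glutathione transferase gene gst2 (0.80 ± 0.14), both lost with the block, and hsp9 had 12.33 and 12.1265 in cid14delta, against 10.56 and 11.41 in wild type (1.24 ± 0.27, adjusted p = 0.051). The wild-type arrays of hsp9 differed from each other by more than the cid14delta arrays did.

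Cell surface and cell cycle lists held both directions. Of 13 adhesion and flocculation genes 4 rose (30.8%, against 4.78% of all features) and 0 fell, with a median of 0.09. The adhesin gene pfl6 (SPAC977.07c) had 8.51 and 9.02 in cid14delta, against 7.37 and 7.87 in wild type (1.15 ± 0.23), so that on both days it was higher by a similar amount. The gene mbx2 (SPBC317.01), for a transcription factor that promotes flocculation, had 10.07 and 9.80 in cid14delta, against 9.28 and 9.02 in wild type (0.78 ± 0.13). The flocculin gene gsf2 (0.85 ± 0.16) and pfl3 (0.76 ± 0.14) rose as deposited and were lost with the block, and pfl6 and gsf2 were lost after quantile normalization. Of 15 septum and cell separation genes eng1, for a glucanase that splits the septum (-0.47 ± 0.07), chs2 (-0.38 ± 0.07) and adg2 (-0.33 ± 0.07) fell (20%, against 3.87% of all features). Of 41 kinetochore genes the NDC80 complex genes spc24 (0.49 ± 0.08) and nuf2 (0.42 ± 0.07), cnp3 and dad1 (0.42 ± 0.09) rose (9.76%, against 4.78% of all features). Of 17 G1/S genes ctp1 (0.39 ± 0.06), yox1 (0.31 ± 0.06) and the cyclin gene cig2 (0.28 ± 0.06) rose (17.6%, against 4.78%). In that list cdt2 fell (-0.39 ± 0.08), a share of 5.88% against 3.87%. Of 31 nuclear pore genes cut11 fell (-0.29 ± 0.06), a share of 3.23% that lay below the 3.87% of all features. None of these septum, kinetochore, G1/S and pore calls held with the block, and 0 of 10 histone genes passed limma's test (smallest adjusted p = 0.0822, at pht1).

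Iron and copper supply genes differed between the days. Of 18 genes 0 passed limma's test, and the median of -0.31 was -0.05 on the first day and -0.64 on the second. The iron permease gene fip1 (SPAC1F7.07c) had 11.81 and 11.39 in cid14delta, against 12.23 and 13.40 in wild type (-1.22 ± 0.38, adjusted p = 0.103). The ferroxidase gene fio1 (SPAC1F7.08) had 10.01 and 9.37 in cid14delta, against 10.37 and 12.02 in wild type, and the siderophore transporter gene str1 had 10.73 and 10.35 in cid14delta, against 10.93 and 11.68 in wild type. In each of these genes wild type replicate 2 was the high array. Without wild type replicate 1, 9 of the 18 genes passed as lower.

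**Figure D4:**
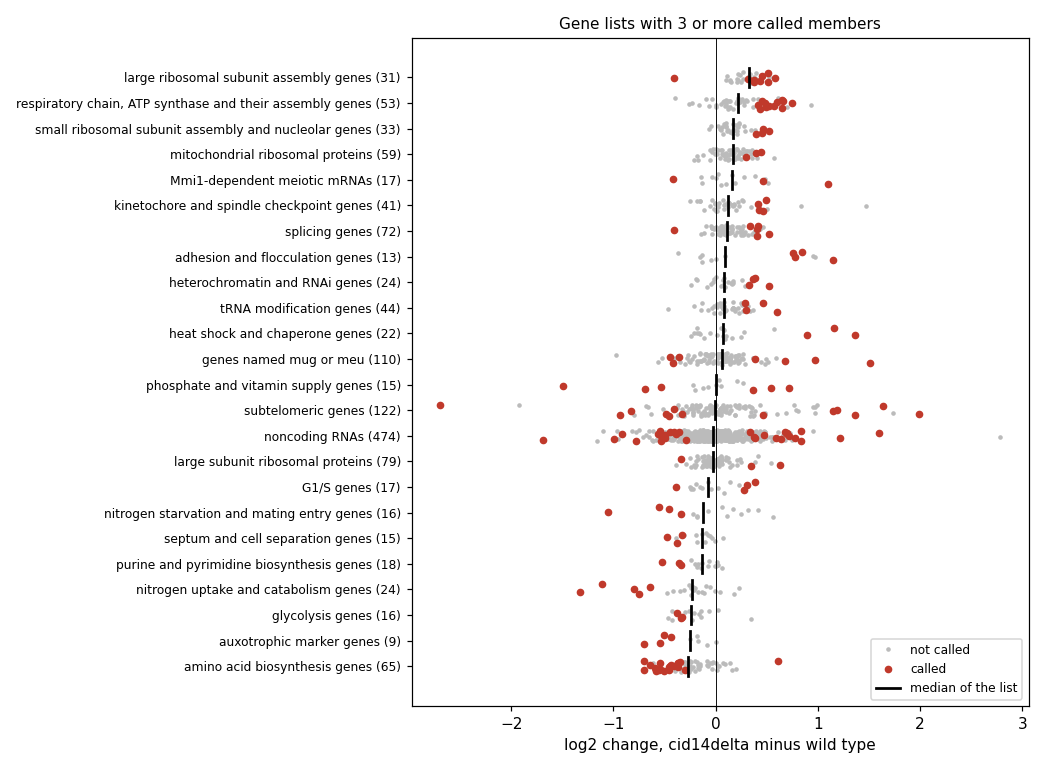
Log2 change, cid14delta minus wild type (x axis), of every gene in the lists with 3 or more called members, leaving out the 4 lists added after the values were seen, with the number of genes in parentheses. Red points are called features, grey points are not, and the black bar is the median of the list; it runs from 0.32 for large ribosomal subunit assembly at the top to -0.27 for amino acid biosynthesis at the bottom.

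The direction of calls varied with the level of the feature. In the quartile of features with the highest mean log2 value 114 of 1371 fell (8.32%) and 48 rose (3.50%), whereas in the lowest quartile 32 fell (2.33%) and 70 rose (5.11%). The median change was -0.03 in the highest quartile and 0.06 in the lowest. Under quantile normalization, which sets all arrays to 1 distribution, 73 fell and 46 rose in the highest quartile, and 31 fell and 36 rose in the lowest. After median centring 185 fell (13.5%) and 34 rose in the highest quartile, and 45 fell and 52 rose in the lowest. Levels of different features depend on their probes as well as on RNA, and the quartiles are a description only. By chromosome, 5.37% of features rose and 3.92% fell on I, 4.14% and 4.14% on II, and 4.60% and 3.07% on III.

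**Figure D5:**
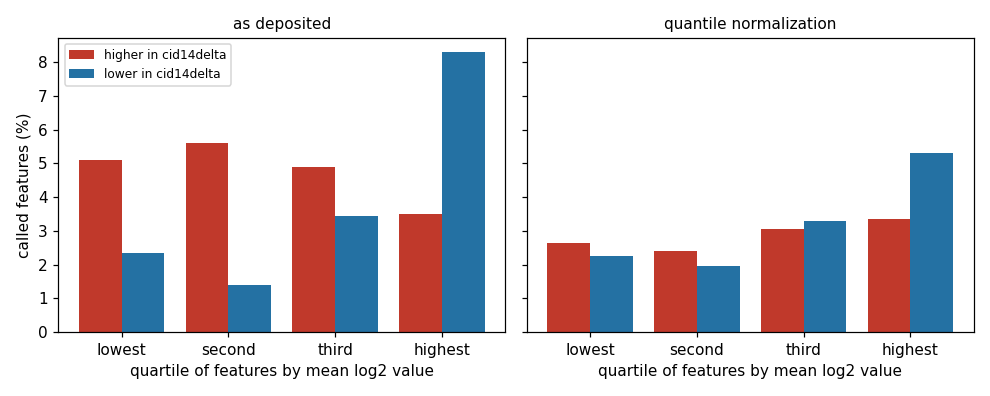
Share of features called higher (red) and lower (blue) in cid14delta, in percent (y axis), by quartile of mean log2 value (x axis), as deposited (left) and after quantile normalization (right). In the highest quartile the share called lower is 8.32% as deposited and 5.32% after quantile normalization.

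Neighbouring features were read by their order in the reference table. Among 5346 pairs of adjacent features 47 had both called, 31 of them in the same direction, and 3 runs held 3 features called in the same direction. Of all features 4.78% were called higher and 3.87% lower, so some adjacent calls arise without any link between neighbours. Whether calls were clustered was not tested. A run on chromosome I rose: SPAC11D3.10 (0.59 ± 0.08), SPAC11D3.11c (0.31 ± 0.06) and hsp3104. Close to it, also on chromosome I, SPAC11D3.16c (-0.49 ± 0.10), SPAC11D3.17 (-0.93 ± 0.09) and SPAC11D3.18c (-1.35 ± 0.15) fell together. SPAC11D3.17 had 7.70 and 7.69 in cid14delta, against 8.51 and 8.73 in wild type, and SPAC11D3.10 had 7.34 and 7.37 in cid14delta, against 6.78 and 6.76 in wild type. The run on chromosome II joined aes1 to SPBPB21E7.08 (-0.49 ± 0.10) and SPBPB21E7.09, which had 6.75 and 6.82 in cid14delta, against 7.57 and 7.65 in wild type (-0.83 ± 0.07). With the block 1 feature of each run was lost, SPAC11D3.11c, SPAC11D3.16c and SPBPB21E7.08 (adjusted p = 0.0745, 0.0572 and 0.0732).

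The difference from the other TRAMP mutant was tested directly, on 5481 features without cid14 and air1. Limma called 547 features (9.98%), 246 higher and 301 lower in cid14delta than in air1delta, and 70 with the replicate block, which here pairs arrays by number only, since cid14delta and air1delta arrays share no day. The arrays of air1delta belong to another array series and to other days than those of cid14delta, so that strain, array series and day cannot be told apart here. SPAC4H3.08 had 9.74 and 9.89 in cid14delta, against 8.001 and 8.30 in air1delta, a difference of 1.66 ± 0.12 (log2, adjusted p = 0.0102). For SPAC22A12.17c the difference was 1.56 ± 0.16, with 8.22 and 8.70 in air1delta. In both genes the air1delta arrays lay nearer to the wild-type arrays than to those of cid14delta.

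On the lower side, aes1 had 5.36 and 5.38 in cid14delta, against 7.31 and 7.06 in air1delta (-1.81 ± 0.16, adjusted p = 0.0133), and SPBC1271.07c had 7.58 and 7.53 in cid14delta, against 9.15 and 9.27 in air1delta (-1.66 ± 0.12, adjusted p = 0.0102). The neighbour of aes1, SPBPB21E7.08, differed by -1.33 ± 0.10. These 5 differences held with the block. The remaining features named by size were SPAC212.08c (at least 1.52 ± 0.32, with air1delta at the deleted-gene level), SPAC212.04c (1.37 ± 0.13), SPAC806.11 (1.25 ± 0.18) and the cytochrome oxidase gene cox8 (1.21 ± 0.25) on the higher side, and wtf13 (-1.30 ± 0.25), SPNCRNA.410 (-1.25 ± 0.15) and gnr1 (-1.20 ± 0.24) on the lower side. None of these 7 passed for cid14delta against wild type, and SPAC212.04c and SPNCRNA.410 alone among them held with the block. Leaving out either cid14delta array left 0 calls in this comparison, and leaving out air1delta replicate 1 or 2 left 2 or 4.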

How the data were processed

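RNA was measured on Affymetrix tiling arrays, 2 per strain and 6 in all. The authors deposited 1 table of log2 values for 5483 features; the log2 scale was inferred from their range of 2.75 to 14.8. The affy package is named in the submitters' processing notes, without version or role. The sources used here do not state the background correction, normalization, probe summary or genome build. No depth exists for arrays, and their number limits the precision. All 6 columns of values were used as deposited, and 0 other columns were present.

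IDs were matched to RefSeq gene names (assembly ASM294v3), 5357 with a match, 126 without. Limma 3.58.1 in R 4.3.3 was fitted with strain as the only factor to all 6 arrays (3 residual and 2.51 prior degrees of freedom), with two-sided p-values and Benjamini-Hochberg adjustment over all features; errors are its standard errors. It was tested on simulated data with known changes and independent noise. That simulation had no day or array effects, so it does not bear on them. Alternatives were 4 arrays, the replicate block, median centring, quantile normalization, a filter on low values, a mean-variance trend with robust moderation, and each array left out. Same-numbered cid14delta and wild-type arrays share a day in the labels and were paired on that ground; their deviations from the strain means correlated at -0.00632.

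The members, lists and naming rule were chosen with earlier results of these data known. The rule named the 15 largest rises and 15 largest falls among called features, and up to 4 members of each list with the smallest p. It also named runs of 3 adjacent calls, and 6 features each way against air1delta. Other list members and the genes ura4, ade6, mtr4, air1 and fio1 were named after their values were seen. Of 47 lists 4 were added after the values were seen, mrp1 was then taken out of the mitochondrial ribosomal list, and 1, transfer RNA ligases, had 0 members. No list was tested as a set.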

Additional observations from a re-analysis of the deposited data

Results flagged for a closer look

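The 30 called features with the largest changes from wild type were read against air1delta. With at least 1 of these strains above the deleted-gene level, 11 differed between cid14delta and air1delta in limma's test of the difference itself. Differences are in log2, cid14delta minus air1delta, with p-values adjusted over 5483 features. The array series and the days differ between these strains, so strain, series and day cannot be told apart. Of these, the differences that held with the replicate block, which pairs these strains by number only, were those of SPAC4H3.08 (1.66 ± 0.12, adjusted p = 0.0102), SPAC22A12.17c (1.56 ± 0.16, adjusted p = 0.0173), aes1 (-1.81 ± 0.16, adjusted p = 0.0133), SPBC1271.07c (-1.66 ± 0.12, adjusted p = 0.0102) and gud1 (-1.06 ± 0.11, adjusted p = 0.0173). Each of these 5 changed further from wild type in cid14delta than in air1delta. The 30 features were chosen by their change in cid14delta, whose arrays enter both comparisons. That choice favours a larger change in cid14delta, so this direction is not separate support. For SPAC4H3.08 the changes were 1.69 in cid14delta and 0.03 in air1delta, and for gud1 they were -1.33 in cid14delta and -0.27 in air1delta.

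Lost with the block were mug125 (0.54 ± 0.09), gon7 (0.62 ± 0.13), vht1 (-0.64 ± 0.13), SPAC227.17c (-0.91 ± 0.18), mfm2 (-1.001 ± 0.14, a lower bound in size since cid14delta was at the deleted-gene level) and the pseudogene SPCC18B5.02c (-0.71 ± 0.10). Of these SPCC18B5.02c alone changed less in cid14delta, by 1.30, than in air1delta, by 2.01. Of the other 162 features called against wild type and held in a list or run, 36 differed from air1delta as well, 8 of them also with the block.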

How the results depend on the processing

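The 474 calls for cid14delta against wild type became 68 with 4 arrays and 178 with the replicate block; that block in 4 arrays left 0 (1368 at an unadjusted p under 0.05). Leaving out 1 array each gave between 0 and 337. The count was 544 after median centring, 333 after quantile normalization, 593 with the filter on low values and 690 with trend and robust moderation. Against air1delta the 547 calls became 70 with the replicate block, and between 0 and 486 with 1 array left out. Of 192 called features that were named or held in a list, none changed direction in any of these settings; 161 were lost with 4 arrays, 117 with the block, 64 after quantile normalization and 26 after median centring. The number of arrays limits every call. No signal over background is given, so weak features were read only against the deleted genes.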
